A study of Mus musculus with 8 samples.

Results

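The data described here are the gene expression profiles of 4 pools of untreated mouse blastocysts, the 4 blank control libraries among 8 libraries of the series. They were chosen by their label alone, and no measured value entered the choice. Each library came from 5 pooled embryos of the outbred ICR strain with a wild-type genotype. Eggs were collected from superovulated females of 6 to 8 weeks and fertilised in vitro with capacitated sperm from males of 8 to 10 weeks. The embryos then developed in KSOM, a simple embryo culture medium, under 5% CO2 and 5% O2 for about 75 h, with vehicle and no oligonucleotide. The other 4 libraries, whose embryos received a microRNA mimic, were not used. Each pool mixes 5 embryos that may differ in sex and developmental pace, so the spread given below is between pools and not between embryos. The pools may also differ from each other in this mix. According to the labels all libraries belong to a single batch. Separate parents or fertilisation sessions are not stated for the pools, so the spread may be technical in part.

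A blastocyst is the last free-floating stage of the mouse embryo before implantation. Its outer epithelium, the trophectoderm, pumps fluid into a cavity and later forms the placenta. The inner cell mass splits into epiblast, the source of the body, and primitive endoderm, the source of the yolk sac lining. Position and polarity of cells set the Hippo pathway, whose effectors switch on trophectoderm genes. Fibroblast growth factor 4 from epiblast cells directs their neighbours towards primitive endoderm.

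The deposited table listed 22013 genes, of which 21402 (97.2%) were annotated as protein coding. Total counts ran from 12246102 to 21271696, the lowest in pool 1. A count was present for 15326 ± 467 genes (SD, n = 4), and 4392 genes (19.95%) had no count in any pool. Levels are given as FPKM, fragments scaled by transcript length and by the total of the library, which allows comparison between genes of different length. A mean of FPKM 1 corresponded to a median of 30, 54, 56 and 47 counts per gene in pools 1 to 4, so that level lay well above the limit of detection. Per-pool values are listed in the order of pools 1 to 4 throughout, and this order has no meaning beyond the labels.

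All 6 genes that mark the expected cells of a blastocyst were present. Krt18, a keratin of simple epithelia, had 562, 1591, 576 and 514 FPKM in pools 1 to 4, and its partner keratin gene Krt8 had 437, 678, 425 and 409 FPKM. Cdx2, the homeobox factor that sets trophectoderm fate, had 16.8, 37.5, 16.8 and 15.97 FPKM. For these 3 genes pool 2 was the highest and the other 3 pools lay close together. Nanog, the homeobox factor of the epiblast, had 89.4, 53.6, 46.9 and 97.0 FPKM, and Gata6, a zinc finger factor of the primitive endoderm, had 32.4, 29.6, 19.4 and 22.5 FPKM. Dppa3, a maternal factor that is kept in pluripotent cells, had 2771, 2153, 1037 and 2770 FPKM, lowest in pool 3. In RNA from whole pools, fewer cells of a type and less RNA per cell cannot be told apart.

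The number of genes at a given level was similar in every pool. FPKM 1 or more was reached by 9943, 9994, 10047 and 9767 genes, FPKM 10 by 4640, 4834, 4550 and 4403 genes, and FPKM 100 by 1140, 1136, 1119 and 1109 genes. By the mean of the 4 pools, 10052 genes (45.7% of those listed) stood at FPKM 1 or more, 4624 at FPKM 10, 1126 at FPKM 100 and 152 at FPKM 1000. The count at FPKM 1 was 9016 when every pool had to reach the level and 10964 when 1 pool was enough. The mean of Lims2 was 1.00 FPKM and that of Il11ra3 was 0.998 FPKM, which put them on either side of the lowest threshold. Ptpn18 at 10.0 FPKM and Mcm10 at 9.998 FPKM bracketed the middle threshold, and Hsp90b1 at 100.3 FPKM and Sycn at 99.3 FPKM the highest. Each of these 6 genes had an SD over pools far larger than its distance from the threshold, for example 4.84 FPKM for Ptpn18.

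**Figure D1:**
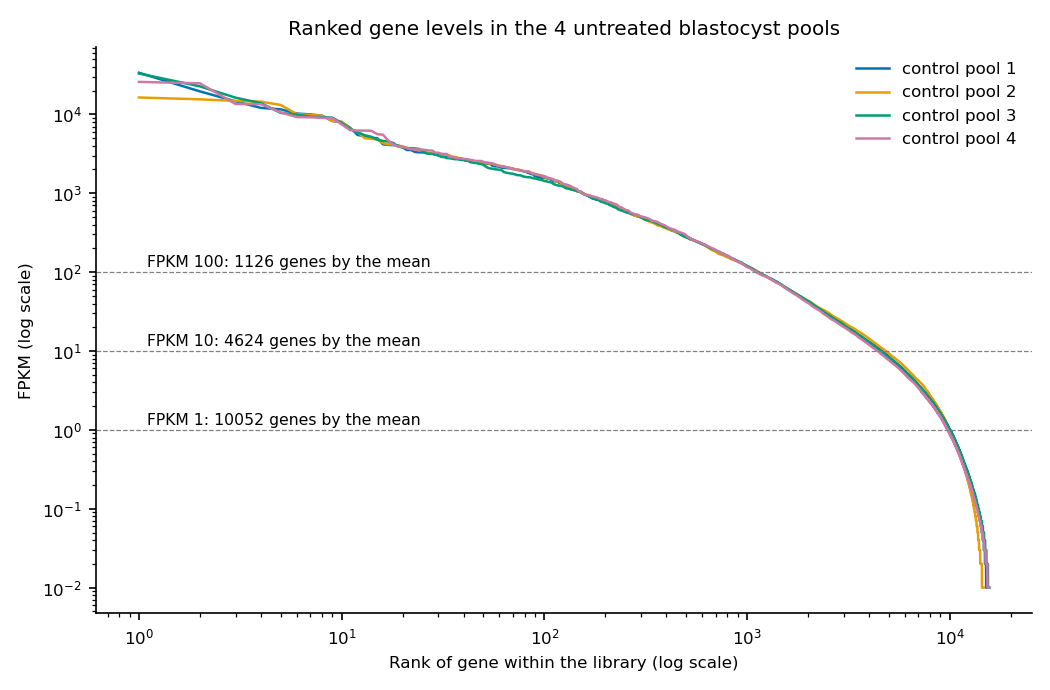
FPKM of every gene with a value above 0 against its rank within the library, both on log scales, with 1 line for each of the 4 control pools. The lines run together from rank 10 down, and dashed lines mark FPKM 1, 10 and 100 with the 10052, 4624 and 1126 genes that reached them by the mean.

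A small number of genes held much of the RNA. The 10 most abundant genes took 10.4% ± 1.03 of all counts, the top 100 took 32.2% ± 1.28 and the top 1000 took 69.5% ± 1.71 (SD, n = 4). Counts added up to 50% within 328, 362, 319 and 290 genes, so pool 4 was the most concentrated and pool 2 the least. The highest gene by FPKM was mt-Atp6, a mitochondrially encoded subunit of ATP synthase, with 33697, 16366, 33002 and 25804 FPKM. The second was Dppa5a, an RNA-binding protein of early embryonic and pluripotent cells, with 14617, 14499, 22646 and 24751 FPKM. This was the most abundant nuclear transcript, at 1.18% ± 0.331 of counts. Fabp3, a carrier of fatty acids in the cytoplasm, was the fourth with 10242, 10082, 16260 and 13463 FPKM. Mt1, a metallothionein that binds zinc, followed with 9986, 14796, 6490 and 9242 FPKM, highest in pool 2 and lowest in pool 3. Ppia, the prolyl isomerase cyclophilin A, had 9637, 8104, 10449 and 9177 FPKM, and Ftl1, the light chain of the iron store ferritin, had 7967, 5969, 9090 and 9043 FPKM.

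The rest of the 20 highest genes by FPKM fell into few kinds. They were 6 further mitochondrially encoded genes, the ribosomal protein genes Rps14 and Rpl41, the galectin gene Lgals1, the histone variant gene H2az1, the autophagy gene Gabarapl2, the respiratory genes Atp5mc1 and Cox8a, and the protease inhibitor gene Cstb. Ranking by share of counts, which favours long transcripts, kept 15 of these 20 and brought in the chaperone gene Hsp90aa1, the lysosomal activator gene Gm2a, the actin genes Actg1 and Actb, and the translation initiation gene Eif2s2. Gm2a had 750, 771, 1370 and 1502 FPKM, with pools 3 and 4 above pools 1 and 2.

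Transcript classes differed in how much RNA they took. The 84 genes of the cytosolic ribosome, whose products build the translation machinery, held 9.14%, 10.1%, 7.43% and 9.12% of counts in pools 1 to 4. All but 1 of them reached FPKM 1, and 82 reached FPKM 100. The 13 mitochondrially encoded genes took 7.54% ± 0.576 of counts and 10.3% ± 1.16 of summed FPKM (SD, n = 4). Nuclear genes of oxidative phosphorylation took 4.43% ± 0.296 of counts, with 84 of 89 at FPKM 1 or more, led by Atp5mc1 at a mean of 4113 FPKM. Mitochondrial ribosomal protein genes took 1.202% ± 0.0468, and all 78 reached FPKM 1. Histone genes took 0.840% ± 0.0949 of counts, and 47 of 104 (45.2%) reached FPKM 1, close to the 45.7% of all genes. Most of the histone counts came from 1 gene, the polyadenylated variant H2az1, at a mean of 5309 ± 858 FPKM. Of 1591 genes with a transcription factor family in the deposited annotation, 776 (48.8%) reached FPKM 1, also near the share of all genes. Only 20 of the 1591 reached FPKM 100, against 5.12% of all genes. Transcription factor genes took 2.88% ± 0.0855 of counts. The highest of these was Id2, an inhibitor of helix-loop-helix factors expressed in early trophectoderm, with 623, 919, 1111 and 942 FPKM. By the pathway annotation of the table, spliceosome genes took 2.07% ± 0.227, proteasome genes 1.55% ± 0.130, lysosome genes 1.97% ± 0.188 and glycolysis genes 1.04% ± 0.0979 of counts.

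Annotated noncoding classes could be described only in small part. Of 22 long noncoding RNA genes listed, 21 had no entry in the table and were not analysed here, and Tug1 had a mean of 0.0475 FPKM. A further 41 genes carried a long noncoding type in GENCODE M21, 10 of them at FPKM 1 or more. The highest were Ndufb1, Stmp1, Cct6a and Ifi30, whose names are those of protein-coding genes. Of 35 annotated pseudogenes 6 reached FPKM 1, led by Rps4l with 90.8, 162, 94.5 and 87.9 FPKM. Reads of such copies can be shared with their parent genes.

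Gene families of differentiated tissues were almost silent, with a few exceptions. Of 1139 olfactory receptor genes, which encode odorant receptors of the nose, 810 had no count in any pool and 15 reached FPKM 1. The exceptions at FPKM 10 or more were Or4b1 with 338, 427, 247 and 317 FPKM, Or2y16 with 104, 43.5, 80.2 and 64.5 FPKM, Or5b106 and Or13a18. All 4 were present in every pool. The other chemoreceptors were lower still, with 2 of 352 vomeronasal receptor genes and 0 of 15 trace amine receptor genes at FPKM 1. Keratin-associated protein genes of hair gave 0 of 110, Hox genes 1 of 39, and antigen receptor segments of lymphocytes 1 of 349. Families known from germ cells and the early embryo were also counted. Of 57 Pramel genes, which encode leucine-rich repeat proteins of germ cells and early embryos, 24 reached FPKM 1 (42.1%), close to the 45.7% of all genes. Their summed level was 1014, 634, 869 and 1254 FPKM. All 10 X-linked Xlr genes reached FPKM 10, and 280 of 418 Zfp zinc finger genes (66.99%) reached FPKM 1.

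Genes of the trophectoderm were present almost without exception, 21 of 22 at FPKM 1 or more against 45.7% of all genes. The exception was Hand1, a factor of later giant cells, at a mean of 0.168 FPKM. The lineage factor genes lay at moderate levels. Gata3 had 35.1, 55.1, 44.5 and 40.4 FPKM, and Tead4, the DNA-binding partner of the Hippo effectors, had 9.62, 13.2, 5.43 and 6.07 FPKM. Elf5, a factor of trophoblast stem cells, had 39.9, 26.2, 100.3 and 51.2 FPKM, and Eomes, a T-box factor of the same cells, had 13.9, 17.02, 28.1 and 20.9 FPKM. These last 2 genes were highest in pool 3, where Cdx2 and Krt18 were not raised. Surface and secretory genes were far more abundant. Dppa1 had 2382, 2106, 3698 and 3481 FPKM, and Tspan8, a tetraspanin of epithelial membranes, had 1149, 1224, 2891 and 2111 FPKM. Ly6a, a lipid-anchored surface protein, had 478, 598, 1247 and 1324 FPKM, and the placental gene Plac1 had 251, 248, 849.5 and 481 FPKM. In each of these 4 genes pools 3 and 4 lay above pools 1 and 2, an order that the list did not share as a whole. Elf5, Eomes, Id2, Dab2, Krt7 and Krt19 had the same order, Krt8, Tead4 and Lrp2 had the reverse, and the other members had neither. The share of all genes with this order was not computed. The epithelial keratin genes Krt7 and Krt19 were low, at means of 2.73 and 2.57 FPKM.

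All 17 measured genes of the inner cell mass and epiblast reached FPKM 1, against 45.7% of all genes, and Tdgf1 was not matched. Pou5f1, the POU factor of pluripotency also known as Oct4, had 29.4, 63.4, 9.99 and 17.99 FPKM, a 5.74-fold range after scaling to library size. Pool 2 was the highest and pool 3 the lowest. Sox2, its partner, was much lower, with 2.82, 3.69, 2.1 and 2.03 FPKM, and Esrrb had a mean of 1.63 FPKM. Sall4, a zinc finger factor that supports Pou5f1, had 107, 84.2, 148 and 146 FPKM. Spic, an ETS factor, had 124, 31.3, 49.6 and 143 FPKM. For both Spic and Nanog, pools 1 and 4 lay above pools 2 and 3. Klf5, a Krüppel-like factor of both inner cell mass and trophectoderm, was the steadiest of the list at 83.6, 97.3, 90.5 and 88.7 FPKM. Zfp42, a zinc finger factor known as Rex1, had 87.7, 99.6, 61.1 and 64.7 FPKM. Fgf4, the signal from epiblast to primitive endoderm, had 9.16, 4.85, 8.84 and 6.75 FPKM.

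Of 20 primitive endoderm genes, 17 reached FPKM 1, against 45.7% of all genes. Gata4 had 11.4, 15.7, 9.88 and 9.15 FPKM, Sox17 had 6.59, 8.23, 5.43 and 3.53 FPKM, and Pdgfra, a growth factor receptor of this lineage, had 6.86, 5.43, 3.56 and 3.84 FPKM. Matrix genes were led by Lamc1, a laminin chain, with 52.4, 64.5, 49.3 and 50.7 FPKM, and by Sparc with 53.1, 47.4, 60.2 and 27.2 FPKM. The genes below FPKM 1 were Foxa2, Hnf4a and Rspo3, which are known from later or visceral endoderm. The summed level of the list was 603, 595, 743 and 618 FPKM, most of it from Dab2, an endocytic adaptor that is also a member of the trophectoderm list and had 391, 373, 553 and 461 FPKM. Without Dab2 the sums were 212, 222, 190 and 157 FPKM, and pool 3 was no longer the highest.

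**Figure D2:**
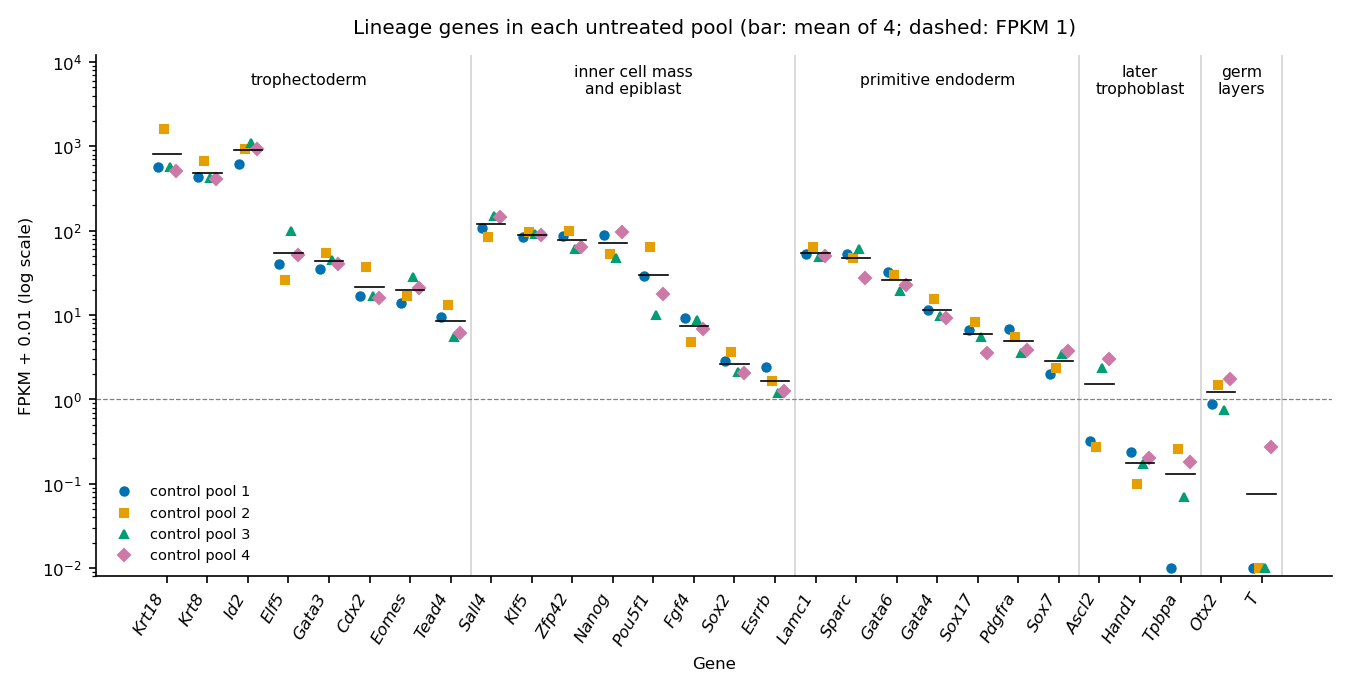
FPKM plus 0.01 (log axis) of 28 lineage genes in each of the 4 control pools, 1 symbol per pool, with a bar at the mean and a dashed line at FPKM 1. The 23 genes of the 3 blastocyst lineages lie above the line by their mean, while Hand1, Tpbpa and T lie below it. Pool 2 is highest for Krt18, Cdx2 and Pou5f1.

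Signalling genes of the lineage decisions were mostly present at low levels. In the Hippo list 14 of 17 genes reached FPKM 1, against 45.7% of all genes. The effector genes Yap1 and Wwtr1 had means of 8.09 ± 1.64 and 11.8 ± 1.39 FPKM, the kinase genes Lats1 and Lats2 had 0.898 ± 0.136 and 6.09 ± 2.85 FPKM, and Amotl2, which holds Yap1 at junctions, had 10.2 ± 3.28 FPKM (SD, n = 4). Tead3 and Amotl1 were below FPKM 1. In the fibroblast growth factor list 12 of 14 genes reached FPKM 1, against the same share of all genes. The receptor gene Fgfr2 had 58.9, 49.7, 55.5 and 45.7 FPKM, above Fgfr1 at a mean of 5.36, Fgfr4 at 1.16 and Fgfr3 at 0.555 FPKM. The feedback inhibitor genes Spry2 and Dusp6 had means of 20.95 and 20.2 FPKM.

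The apparatus of the cavity epithelium was present, with 19 of 20 genes at FPKM 1 or more, against 45.7% of all genes. Cldn4 and Cldn7, claudins that seal tight junctions, had 116, 227, 255 and 187 FPKM and 94.3, 179, 240 and 128 FPKM. Of the sodium pump that drives fluid inward, Atp1b1 had 46.3, 59.3, 43.6 and 41.6 FPKM, and Atp1b3 had 31.7, 33.1, 33.7 and 32.8 FPKM. Both pump genes lay close together in the 4 pools. Among water channel genes Aqp8 had 32.6, 39.4, 32.9 and 30.99 FPKM, whereas Aqp3 had 15.4, 28.4, 49.1 and 63.9 FPKM, a 4.62-fold range after scaling. Slc9a3, a sodium-proton exchanger, had no count in any pool.

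Genes of other stages and tissues were largely below FPKM 1, a level that 45.7% of all genes reached. Of 14 genes of later trophoblast and placenta 2 reached it, Ascl2 with 0.310, 0.260, 2.37 and 3.05 FPKM and the placental lactogen gene Prl3b1 with 2.15, 6.84, 0.0500 and 3.17 FPKM. A further 5, Prl3d1, Prl2c2, Prl4a1, Gcm1 and Cts7, had no count at all. Of 20 germ layer genes 4 reached FPKM 1, namely Eomes, Otx2, Gsc and Lefty2, and T, the mesoderm factor brachyury, had a mean of 0.0650 FPKM. Of 20 maternal genes 6 did so. Dppa3, Khdc3 (328, 470, 356 and 245 FPKM) and Ooep (86.8, 117, 56.3 and 105 FPKM), the last 2 of the maternal subcortical complex, were abundant, while Gdf9, Bmp15, Zar1, Mos, Nlrp5, H1f8 and Btg4 were between 0 and 0.108 FPKM by their means.

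Markers of cells that could accompany an embryo were sparse with a few exceptions. Of 18 cumulus and granulosa genes 4 reached FPKM 1, against 45.7% of all genes. The highest was Cyp11a1, the enzyme that opens steroid synthesis, with 14.9, 20.5, 28.5 and 9.33 FPKM, followed by Npr2, Inha and Amhr2. The defining genes Amh, Fshr, Cyp19a1, Has2, Ptx3 and Tnfaip6 were between 0 and 0.103 FPKM by their means. Of 12 sperm genes only Odf2, a centrosomal gene, reached the level, at a mean of 7.62 FPKM, with Prm1 at 0.0775 and Tnp1 at 0.0275 FPKM. Of 12 fibroblast and endothelial genes only Pecam1, a cell adhesion gene also known from the inner cell mass, did so at 2.01 FPKM. Of 12 blood genes 3 did: Cd68, Hba-a1 and Lyz2. Summed FPKM ran from 22.2 to 49.5 for the cumulus list, from 7.32 to 12.9 for the sperm list, from 16.5 to 39.6 for the blood list and from 2.31 to 6.61 for the fibroblast and endothelial list.

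Of 20 imprinted genes listed, 4 were not measured, and 10 of the other 16 reached FPKM 1, against 45.7% of all genes. By their means 6 lay below FPKM 1, 7 between 1 and 10, and 3 at 10 or more. The highest was Snrpn, a splicing protein gene expressed from the paternal copy, with 106, 63.97, 76.2 and 74.8 FPKM. Igf2, a fetal growth factor gene, had a mean of 3.908 ± 1.4996 FPKM, and Peg3, Peg10, Plagl1 and Dlk1 were below FPKM 1.

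The spread between pools was described for the 4624 genes at FPKM 10 or more. It is given as the coefficient of variation, the SD divided by the mean, of CPM, counts per 1000000 scaled by the TMM method. Its median was 19.04%, and the median from counting error alone would be 2.90%. It was 25.4% for genes at FPKM 1 to 10, 19.5% at 10 to 100, 17.7% at 100 to 1000 and 17.9% above 1000. All 4 pools lay within 2-fold of each other for 3717 genes (80.4%). The biological coefficient of variation that edgeR estimated over 11366 genes left by its filter on low counts was 29.3%. Pool 2 contributed most. Without it the median fell to 13.8% and 92.9% of genes lay within 2-fold, whereas leaving out another pool gave 17.9% to 20.1%. By pairs, 88.3% of genes were within 2-fold between pools 2 and 3, and 97.3% between pools 1 and 4.

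**Figure D3:**
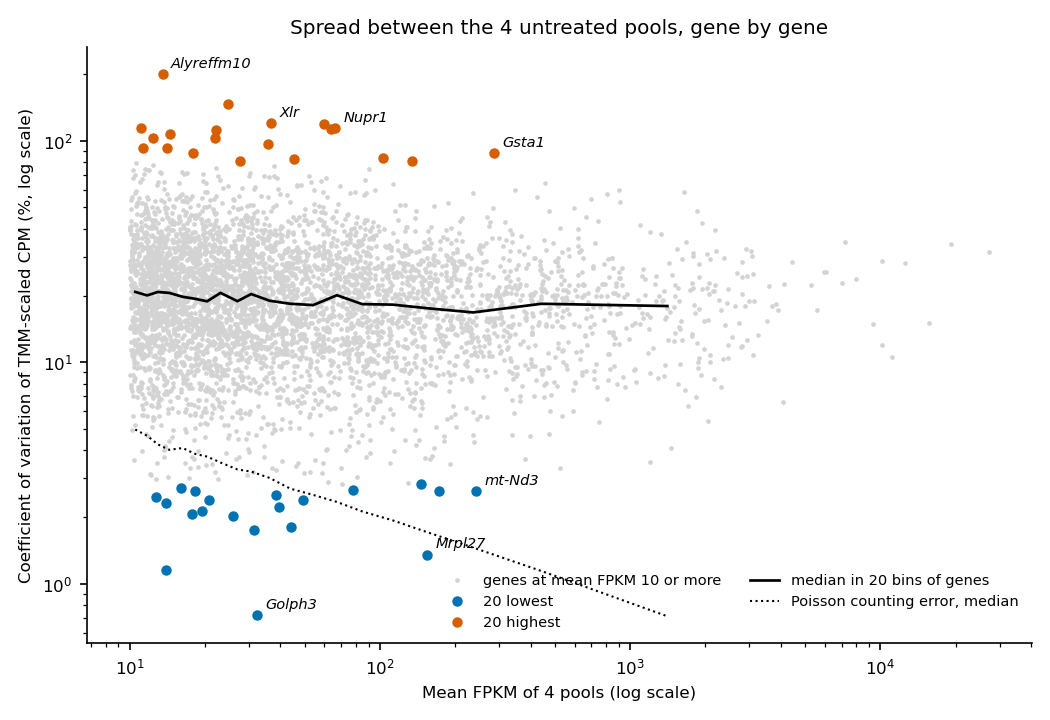
Coefficient of variation of TMM-scaled CPM over the 4 control pools (percent, log axis) against mean FPKM (log axis) for 4624 genes. The median (solid line) stays near 19.04% across levels, while Poisson counting error (dotted line) falls. The 20 lowest genes (blue) reach at most 2.81% under this scaling and the 20 highest (orange) above 81.1%.

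The steadiest gene was Golph3, a Golgi protein that helps vesicles bud, with 88.9, 87.6, 88.4 and 87.7 CPM. Tle4, a corepressor, had 63.2, 62.8, 63.9 and 62.2 CPM, and Mrpl27, a mitochondrial ribosomal protein gene, had 118, 115, 117 and 115 CPM. Among the 20 lowest were further genes of general cell function: Metap1, which trims the first methionine from proteins, the chromatin genes Cbx5, Baz1a and Kat8, the Golgi tethering gene Vps51, the dynactin gene Dctn6, the proton pump gene Atp6v1e1, Mrpl58, Romo1 and mt-Nd3. The list also held Surf2, D030056L22Rik, Tial1, Slc35b2, Afdn, Hapstr1 and Appbp2. In 16 of these 20 genes the spread was below that of counting error, as it was in 37 of all 4624 genes. Both statements depend on the scaling: with library totals in place of TMM the 20 genes had a median coefficient of 7.11% (4.21% to 9.11%), Golph3 had 6.87%, and none was below counting error. They are the extreme of a long list and need not be the steadiest in other pools. On the deposited FPKM, 13 of the 20 remained in the lowest 10%, and Tial1 had 20.6, 26.2, 16.7 and 19.3 FPKM although its CPM was even. All 19 measured members of a list of common reference genes reached FPKM 1, but several were less steady. Actb had 1598, 1954, 3087 and 2193 FPKM and a coefficient of 31.9%, and Gapdh had 2000, 1412, 2758 and 1976 FPKM and 30.8%. The lowest coefficients of that list were 8.72% for Rpl13a, 8.80% for Gusb and 10.0% for Eef1a1, with Gusb at 23.3, 23.5, 23.7 and 24.8 FPKM.

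The 20 most variable genes had coefficients from 81.1% to 200%, and 12 of them were highest in pool 3, 5 in pool 4, 2 in pool 1 and 1 in pool 2. Of the 20, 5 lay on the X chromosome, which held 3.57% of the 4624 genes. They were Xlr, Magea13, Magea5, 1700013H16Rik and Tceal8. Magea13, a melanoma antigen family gene, had 6.96, 171, 17.8 and 43.96 FPKM. Several have near copies that can exchange reads, among them Alyreffm10, Eif1ad7, Pramel56, Xlr, Magea13, Magea5, Gsta1 and Gsta13. Erhrt-ps carries the symbol of a pseudogene, so its reads may be shared in the same way. Genes highest in pool 1 were Gm2007 with 78.9, 6.98, 11.9 and 1.33 FPKM and Erhrt-ps with 172, 14.9, 14.9 and 54.1 FPKM. P2rx7, an ATP-gated channel, had 6.19, 0.540, 14.4 and 28.4 FPKM, and Tmem86a had 9.95, 1.24, 37.0 and 9.91 FPKM, both lowest in pool 2. The remaining members Nupr1, Mmp12, Phlda2, Gsta1, Gsta13, Tmem109, Glipr1, Tceal8, Herpud1, Eif1ad7 and Alyreffm10 peaked in pool 3.

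Promoter windows of RefSeq on GRCm38.p6 were searched for TATAAA, the core of the TATA box, on the sense strand from 50 to 15 bases before the gene start. It was found in 7 of 157 of the 200 most variable genes that had a window (4.46%) and in 3 of 153 of the 200 steadiest (1.96%). The share was 1.356% for genes at FPKM 10 or more, 3.43% for all listed genes with a window and 2.32% for all 32851 windows. The same stretch held TTTATA, the motif on the opposite strand, in 0.637%, 1.31%, 0.407%, 0.750% and 0.840% of these sets. Letters shared by both motifs were counted under each. A match is a description of letters and not evidence of a site in use. The following windows of 30 bases are given 5′ to 3′ on the strand of the gene, with the motif in capitals, for a steady gene (Atp6v1e1), 2 variable genes (Phlda2 and Aqp3), an abundant gene (Ppia) and the near copies Zscan4b and Zscan4f, which differ here at 2 of 30 bases.
Atp6v1e1, chr6:120822711-120822740, minus strand: ggaagcggggttTATAAAgtaaaggaagct
Phlda2, chr7:143502537-143502566, minus strand: gggcggagtcctTATAAAgaccacgccgcg
Aqp3, chr4:41098195-41098224, minus strand: gcaggctgagcgTATAAAgggcgccacctg
Ppia, chr11:6415826-6415855, plus strand: gcccgaaccgggTATAAAggaagccgcggc
Zscan4b, chr7:10905064-10905093, minus strand: gaagccagaggcTATAAAagggaaccaatc
Zscan4f, chr7:11397872-11397901, plus strand: gaagccaggcgcTATAAAagggaaccaatc

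Pool 3 stood apart by genes that the other pools lacked. In it 24 genes were at least 4-fold above every other pool with FPKM 10 or more, against 2, 3 and 4 such genes in pools 1, 2 and 4. For 12 genes it was at FPKM 10 or more while all others were at 1 or less, and no other pool had any such gene. Of these 12, 4 were Alyreffm genes, 2 were Zscan4 pseudogenes and 1 was a copy of Eif1ad, all of families with many near copies. Alyreffm10 had 1364 counts in pool 3 and 0 in each other pool, and the predicted gene Gm13043 had 550 counts against 0. The summed level of Zscan4 genes, which mark genome activation at the 2-cell stage, was 0.450, 0, 55.6 and 0.100 FPKM. That of the Alyreffm genes was 1.58, 0.950, 132 and 0.800 FPKM, and that of the numbered Eif1ad copies was 18.5, 12.3, 172 and 14.7 FPKM. Zfp352, a zinc finger gene of the same stage, had 0.0400, 0, 8.84 and 0 FPKM. Of 16 measured genes of the 2-cell list 7 reached FPKM 1 by the mean, near the 45.7% of all genes. Only 1 did so without pool 3. These copies share most of their sequence, so family sums are safer than single members.

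The remaining 4 of the 12 were genes of myeloid cells. Tyrobp, a signalling adaptor of myeloid and natural killer cells, had 358 counts (29.5 FPKM) in pool 3 and none elsewhere. Lyz2, the lysozyme of macrophages, had 467 counts (16.7 FPKM), the chemokine gene Ccl4 had 175 counts (12.5 FPKM), and neither had a count in another pool. Wfdc17 had 155 counts in pool 3 and 3 in pool 4. A count of 0 allows up to 0.239, 0.146 and 0.156 TMM-scaled CPM in pools 1, 2 and 4, taking 3 counts as the limit and counting error only. Among further myeloid genes chosen after these values were seen, Ctss and Ccl3 were found only in pool 3, at 4.02 and 5.28 FPKM. Fcer1g had 0.730, 0.630, 4.39 and 0.780 FPKM. Cd68 was not raised there, at 24.6, 19.2, 19.7 and 14.3 FPKM, nor was Laptm5. Csf1r had no count in any pool and Ptprc a mean of 0.0150 FPKM. The part of other cells in this pattern was not tested.

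In pool 3, 7 of 9 genes known to respond to amino acid shortage or endoplasmic reticulum stress had their highest FPKM. On that scale 25.2% of all genes at FPKM 10 or more were highest there. The 9 genes were gathered after the values of pool 3 were seen, and Nupr1 and Herpud1 were already among the 20 most variable genes. The count of 7 is therefore a description and not support for a response in pool 3. Nupr1, a stress-induced chromatin protein, had 23.7, 40.9, 179 and 21.5 FPKM. Chac1, which degrades glutathione, had 2.29, 1.38, 17.6 and 2.08 FPKM, and Trib3, a pseudokinase, had 2.74, 0.600, 9.86 and 2.82 FPKM. Asns, asparagine synthetase, had 115, 86.6, 217 and 85.4 FPKM, Herpud1 had 13.6, 12.3, 59.2 and 25.0 FPKM, and Atf4, the transcription factor of this response, had 73.7, 65.0, 122 and 71.3 FPKM. Slc7a3, a transporter of basic amino acids, had 27.1, 9.21, 76.9 and 37.96 FPKM, and for each of these 7 genes pool 3 lay above all others. Phgdh, the first enzyme of serine synthesis, had 58.5, 157, 57.2 and 44.2 FPKM, highest in pool 2. Ddit3, a target of Atf4, had 35.8, 40.5, 29.4 and 27.5 FPKM, and the p53 target genes Cdkn1a and Mdm2 did not peak there, so not all stress genes were highest in pool 3. Of 20 genes of the stress and immediate early list 12 reached FPKM 1, against 45.7% of all genes. The glutathione transferase gene Gsta1 had 99.2, 137, 641 and 265 FPKM. Ribosomal protein genes went the other way, with 61 of 83 genes at FPKM 10 or more (73.5%) lowest in pool 3, against 29.2% of all genes at that level. None was highest in pool 3, against 25.5% of all genes. The histone genes H2ac12 and H2ac13, picked for their low values in pool 3, had 63.1, 91.8, 2.32 and 87.0 FPKM and 40.7, 71.0, 9.21 and 71.95 FPKM. Histones as a group did not share this. At FPKM 10 or more, 5 of 17 histone genes were lowest in pool 3, near the 29.2% of all genes. H2ac24, with 740, 953, 826 and 1139 FPKM, was lowest in pool 1.

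**Figure D4:**
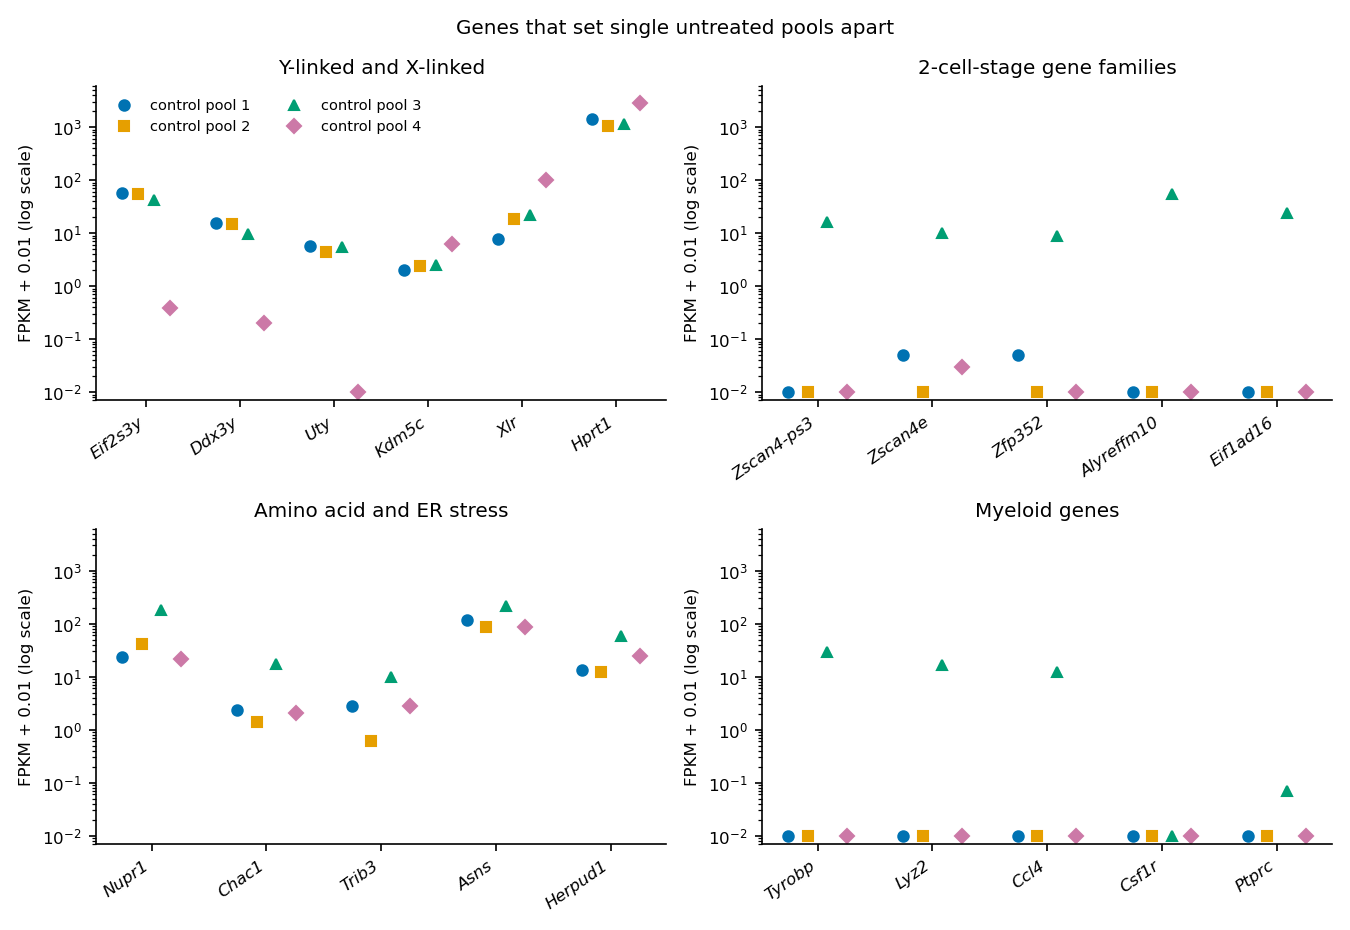
FPKM plus 0.01 (log axis) of 21 genes in 4 panels, with 1 symbol for each control pool. Pool 4 is near 0 for the Y-linked genes Eif2s3y, Ddx3y and Uty and highest for Kdm5c, Xlr and Hprt1, and pool 3 is the highest for the genes of the 2-cell-stage and stress panels and for Tyrobp, Lyz2 and Ccl4.

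Pool 4 had almost no RNA from the Y chromosome. Eif2s3y, a translation factor gene expressed in male embryos, had 58.0, 54.5, 42.0 and 0.370 FPKM. Ddx3y, an RNA helicase gene, had 15.6, 14.7, 9.48 and 0.190 FPKM, and Uty had 5.79, 4.44, 5.50 and 0 FPKM. Counts on all 151 Y-linked genes were 2815, 4108, 3487 and 93 in pools 1 to 4. In the same pool X-linked genes were high. The X chromosome took 2.99%, 2.94%, 3.64% and 4.10% of counts, and the ratio of the median FPKM of X-linked to autosomal genes at FPKM 5 or more was 0.886, 0.972, 1.07 and 1.34. Of 224 X-linked genes at that level 55.8% were highest in pool 4, against 22.5% of 6099 autosomal genes. Kdm5c, a histone demethylase gene with a Y-linked partner, had 2.03, 2.38, 2.49 and 6.16 FPKM. Hprt1, the X-linked purine salvage gene, had 1461, 1048, 1155 and 2883 FPKM, and Xlr, a chromatin-associated gene, had 7.72, 18.2, 22.1 and 99.1 FPKM. Of 8 measured genes of the list of X and Y partners 7 reached FPKM 1, against 45.7% of all genes. Ddx3x, the partner of Ddx3y, differed little, with 61.2, 65.4, 51.0 and 57.6 FPKM. The labels do not give the sex of the embryos.

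Pools 1 and 2 differed in opposite directions by base composition. Genes were ranked by the guanine and cytosine (GC) content of their longest annotated transcript, which was known for 99.9% of the 4624 genes. In the fifth with the lowest content, the median log2 deviation from the mean of the pools was 0.07, -0.16, 0.04 and 0.06 in pools 1 to 4. In the fifth with the highest content it was -0.12, 0.09, 0.00 and 0.05. Over genes the correlation of deviation with GC content was -0.321, 0.240, -0.00566 and -0.0518, a description only, as genes of a library share its preparation. Pool 2 thus had higher scaled counts for GC-rich genes and pool 1 lower ones. A difference in RNA and a recovery of reads that depends on GC content cannot be told apart here. Mitochondrial genes did not move together in pool 2. mt-Atp6, mt-Atp8 and mt-Cytb were lowest there, mt-Cytb with 8236, 3941, 9360 and 7477 FPKM, while mt-Co1 had 4047, 8254, 5941 and 5518 FPKM and mt-Nd2, mt-Nd5 and mt-Nd6 were also highest in pool 2. Over whole groups, pool 2 held the highest level of 23 of 40 proteasome genes and 45 of 97 spliceosome genes, against 31.8% of all genes at FPKM 10 or more. The part of base composition in the levels of Krt18, Cdx2 and Pou5f1 in pool 2 was not tested.

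**Figure D5:**
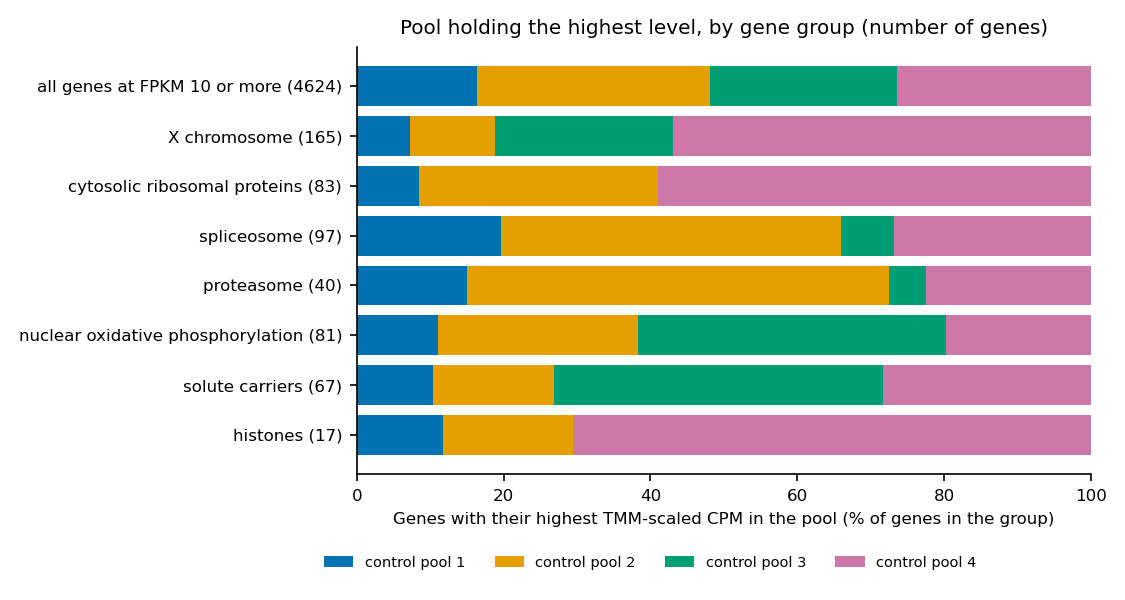
Share of genes at FPKM 10 or more whose highest TMM-scaled CPM falls in each of the 4 control pools (percent, stacked bars), for all 4624 genes and 7 groups with the number of genes in brackets. Pool 4 holds 57.0% of X-linked, 59.0% of ribosomal protein and 70.6% of histone genes, pool 3 holds none of the ribosomal protein genes, and pool 2 holds 57.5% of proteasome genes.

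Groups of genes also differed in how steady they were. Among genes at FPKM 10 or more, 79 of 83 ribosomal protein genes and 69 of 75 mitochondrial ribosomal protein genes were within 2-fold in all pools, against 80.4% of all genes. The shares were lower for transcription factors at 71.6%, solute carriers at 55.2%, histones at 52.9%, X-linked genes at 62.4% and the trophectoderm list at 9 of 17. None of the 7 Pramel genes was within 2-fold. Of the 200 most variable genes 9.5% were X-linked and 5.0% were solute carriers, against 3.57% and 1.45% of all genes at FPKM 10 or more. Their median GC content was 53.1%, against 46.4% in the 200 steadiest and 48.2% in all.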

How the data were processed

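Messenger RNA was selected by its poly(A) tail from 4 pools of 5 untreated blastocysts and read from both ends, according to the labels' protocols. The authors' deposited table gives an expected count (a count that need not be whole) and an FPKM value per gene and library. Of 88052 deposited count values in these libraries 671 were not whole, and counts were rounded before scaling. The build GRCm39 and the tools HISAT2 2.1.0, RSEM, StringTie 1.3.1, fastp 0.18.0 and DESeq2 1.36.0 are listed, per the submitters' processing notes, with no roles. Neither strand setting nor annotation release is given in the sources used here, so overlapping antisense genes cannot be separated. FPKM scales each library to its own total, so a rise of abundant genes lowers all others.

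Gene types, chromosomes and GC content came from GENCODE M21 (GRCm38), matched by gene identifier, and 186 genes were unmatched. No coordinates were combined between builds. TMM factors and the biological coefficient of variation were computed with edgeR 4.0.16 in R 4.3.3, and DESeq2 1.42.0 size factors, library totals and deposited FPKM were alternatives. The code for the coefficient of variation was tested on simulated data. No groups were compared and no p-value was computed. Intervals and limits cover counting error only, since reads carry no molecular identifiers.

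Named genes were the 20 highest by FPKM and by share of counts, the 20 with the lowest and the 20 with the highest coefficient of variation among genes at FPKM 10 or more, members of 19 gene lists, the genes next to each threshold and the 5 highest of each class. Genes high in a single pool were chosen after their values were seen. The question and the lists were chosen with earlier results of these data known. A symbol listed under more than 1 identifier was taken from the identifier with counts.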

Additional observations from a re-analysis of the deposited data

Results flagged for a closer look

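Of 93 genes whose 4 levels are described above, 20 had 1 pool far from the other 3 by Dixon's criterion at 95%, 12 of them in pool 3, 5 in pool 2, 2 in pool 4 and 1 in pool 1. For normally distributed values chance alone gives about 1 in 20 such groups, a rate that need not hold for FPKM. A gene at 0 in all pools but 1, such as Tyrobp, always meets the criterion. Many of these genes were also chosen for a high value in a single pool, so the count is a description. In pool 2 the distant values were 1591 FPKM for Krt18, 678 for Krt8, 37.5 for Cdx2, 162 for Rps4l and 157 FPKM for Phgdh. In pool 3 they were 8.84 FPKM for Zfp352, 54.2 for Alyreffm10, 179 for Nupr1, 17.6 for Chac1 and 122 FPKM for Atf4. The myeloid genes of pool 3 were also distant, with 29.5 FPKM for Tyrobp, 16.7 for Lyz2, 12.5 for Ccl4, 13.7 for Wfdc17, 4.39 for Fcer1g, 4.02 for Ctss and 5.28 FPKM for Ccl3. In pool 4 they were 6.16 FPKM for Kdm5c and 99.1 FPKM for Xlr, and in pool 1 the value was 78.9 FPKM for Gm2007.

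Of 43 values taken for each library, summed levels of gene families among them, 8 had a distant pool. The Zscan4, Alyreffm and Eif1ad families hold genes named above for being high in pool 3 alone. Their sums repeat that observation, so this count too is a description. Pool 3 stood out with 4.87% of counts from nuclear oxidative phosphorylation genes and with summed levels of 55.6 FPKM for Zscan4, 132 for Alyreffm, 172 for Eif1ad copies and 2.22 FPKM for Usp17l genes. Pool 2 had a summed keratin level of 2293 FPKM and a summed Zfp zinc finger level of 3052 FPKM. Pool 4 had 2.75% of counts from transcription factor genes.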

How the results depend on the processing

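Of 191 values recomputed under alternatives for 31 results on whole libraries, lists and classes, 167 stayed within the spread or within 1.5 times the original and 24 moved. As a share of summed FPKM, the top 10, 100 and 1000 genes held 15.4%, 42.7% and 82.4%, mitochondrially encoded genes 10.3%, cytosolic ribosomal 15.3%, mitochondrial ribosomal 1.51%, nuclear oxidative phosphorylation 7.92%, histone 0.979% and transcription factor genes 1.76%; long and short transcripts weigh differently there. Without mitochondrially encoded genes the top 10, 100 and 1000 held 7.80%, 28.0% and 67.2% of counts. At FPKM 2 in place of 1, the later trophoblast list had 1 gene, germ layers 2 and the 2-cell list 3. At FPKM 0.5 the sperm list had 2 genes and the fibroblast and endothelial list 3. Leaving out each pool in turn gave 1 to 8 genes for the 2-cell list, 1 to 2 for sperm and 1 to 2 for fibroblast and endothelium. The median coefficient of variation was 34.8% with no filter on FPKM, where genes with few counts enter, and 13.8% to 20.1% leaving out each pool in turn. It was 18.7% to 22.0% under library totals, DESeq2 size factors, deposited FPKM, subtraction of counting error, a filter of FPKM 1 and scaling within bins of GC content, the last chosen after seeing the data. Of the 20 steadiest genes, the coefficient moved by over 1.5 times in 19 under library totals, 20 under deposited FPKM and 1 under DESeq2 size factors; their median was 7.11%, 7.69% and 2.34%, against 2.35% under TMM. Of the 20 most variable genes none moved under these, and 17 stayed in the highest 10% without pool 3. No paired analysis was possible because a single group was described. Depth limits genes below FPKM 1, and pool 1 had the fewest counts.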
